A study of Mus musculus with 12 samples.

Results

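Nlrp3, Nlrc4, Naip5, Nlrp1b, Pycard, Casp1, Casp4, Gsdmd and Ninj1 encode sensors, the adaptor, caspases and membrane-rupturing proteins of the inflammasome and of pyroptosis in the mouse. These 9 genes were taken by symbol from the 48526 genes of the count table, and all 9 were found there and passed the filter on low counts. They were measured by total RNA sequencing of bone marrow-derived macrophages (BMDMs), obtained by culturing marrow of the long bones for 6 d in medium conditioned by L929 cells. The marrow came from young adult male mice of either genotype. Homozygous HSS9 knockout (KO) mice lack a stretch of DNA upstream of Tnf, a region that the text of the study calls TNF-9. The controls (WT) carried HSS9 on both chromosomes. Cells received PBS, here called untreated (UT), or lipopolysaccharide (LPS), a component of the bacterial outer membrane, for 6 hr. Each of the 4 combinations (WT UT and WT LPS, KO UT and KO LPS) had 3 libraries. Control mice are littermates by the labels, whereas the methods describe purchased C57BL/6 mice and a KO line bred from homozygous pairs, so the genotypes may differ in background as well as at HSS9. Nothing states that the 3 libraries of a group came from separate animals, so p-values measure the spread between these libraries, which may be technical.

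An inflammasome is a protein complex that macrophages assemble in the cytosol when a sensor meets a sign of infection or damage. NLRP3 responds to many disturbances of the cell, NAIP5 binds bacterial flagellin and engages NLRC4, and NLRP1B responds to pathogen proteases. The adaptor ASC, encoded by Pycard, couples sensors to caspase-1, which matures the cytokines IL-1β and IL-18 and cuts gasdermin D, encoded by Gsdmd. Mouse caspase-11, encoded by Casp4, binds LPS that has reached the cytosol and also cuts gasdermin D, whose fragment opens pores in the plasma membrane. NINJ1 then ruptures that membrane and the cell dies by pyroptosis. LPS outside the cell acts through TLR4 and NF-kappaB to raise transcripts of several of these genes, a step called priming. The counts measured these transcripts only, and assembly, cleavage and cell death were not measured here.

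Positions are those of the GENCODE annotation of GRCm38, where all 9 are protein-coding genes. Among the sensors, Nlrp3 (ENSMUSG00000032691) lies at chr11:59541568-59566956 on the plus strand, and Nlrp1b (ENSMUSG00000070390) at chr11:71153102-71230733 on the minus strand. Nlrc4 (ENSMUSG00000039193) lies at chr17:74425438-74459142 and Naip5 (ENSMUSG00000071203) at chr13:100211739-100246323, both on the minus strand. Pycard (ENSMUSG00000030793) lies at chr7:127989708-127993867 on the minus strand. Casp1 (ENSMUSG00000025888, chr9:5298517-5307265) and Casp4 (ENSMUSG00000033538, chr9:5308828-5336783) are neighbours on the plus strand. Gsdmd (ENSMUSG00000022575) lies at chr15:75862327-75867408 and Ninj1 (ENSMUSG00000037966) at chr13:49187485-49196244, both on the plus strand. Counts were summed over exons. Of all windows as long as a read in the transcripts of Naip5, 15.9% also occurred in another gene, most often Naip3 (8.66%), so part of the Naip5 count is uncertain. For Pycard this share was 10.3%, all of it with Gm45205, a gene on the opposite strand that overlaps 485 exonic bases and reached at most 34 counts in a library. The share was 0.0318% for Nlrp1b and 0 for the other 6 genes.

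The windows just before the start sites are shown for Casp4 and Nlrp3, which had the largest increases after LPS, and for Nlrp1b, which fell. Promoter windows from RefSeq were used for 8 of the 9 genes, and that of Gsdmd was not analysed here. Each sequence is the 250 bases before a RefSeq start site in GRCm38.p6, written 5′ to 3′ on the strand of the gene, with matches to the NF-kappaB consensus in capitals. The windows lie at chr9:5308599-5308848 (plus strand, Casp4), chr11:59541319-59541568 (plus strand, Nlrp3) and chr11:71230734-71230983 (minus strand, Nlrp1b).
Casp4: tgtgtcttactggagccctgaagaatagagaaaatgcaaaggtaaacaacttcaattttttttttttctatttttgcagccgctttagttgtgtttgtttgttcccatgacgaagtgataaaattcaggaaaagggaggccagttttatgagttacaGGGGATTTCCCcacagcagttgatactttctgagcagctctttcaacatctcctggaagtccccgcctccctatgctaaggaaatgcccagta
Nlrp3: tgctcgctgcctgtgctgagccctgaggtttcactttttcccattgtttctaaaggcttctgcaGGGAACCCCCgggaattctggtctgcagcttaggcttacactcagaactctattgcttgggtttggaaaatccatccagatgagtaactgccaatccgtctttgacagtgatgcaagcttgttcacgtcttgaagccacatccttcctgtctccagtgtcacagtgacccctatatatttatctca
Nlrp1b: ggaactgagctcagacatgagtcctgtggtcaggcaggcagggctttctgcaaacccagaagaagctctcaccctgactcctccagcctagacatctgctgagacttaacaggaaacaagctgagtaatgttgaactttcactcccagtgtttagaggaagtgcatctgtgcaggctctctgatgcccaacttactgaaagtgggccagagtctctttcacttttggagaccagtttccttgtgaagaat
The capitals begin 93 bases before the start site in Casp4 and 186 bases before it in Nlrp3, where the match reads on the opposite strand. Nlrp1b has no match in the window shown. Searched on both strands over the window from 250 bases before to 50 after each start, the NF-kappaB consensus occurred in 3 of the 8 genes with a window (Nlrp3, Naip5 and Casp4) and in 4.51% of all 32851 windows. A gene counted when any of its windows matched, whereas the share of all is per window, so these shares differ in unit. Casp4, Nlrp3 and Nlrp1b each have a further window, and those of Nlrp3 and Nlrp1b have no match. A match is a description of letters and says nothing of binding, and the absence of a match concerns these letters in these windows only.

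Libraries held 26154533 to 36423921 counts, and the lowest count of any of the 9 genes in a library was that of Nlrp1b, at 280. Levels are counts relative to the library total after TMM scaling (CPM), and tests are those of edgeR across 15523 genes. Tnf itself was lower in KO cells, at 432 ± 15.2 CPM against 890 ± 57.4 CPM in WT after LPS (SD, n = 3 each; log2 difference -1.04, edgeR adjusted p = 2.76e-10). All 7 macrophage markers were present in every group, with a summed level of 28400 to 29430 CPM in WT UT, 32580 to 33680 in KO UT, 24430 to 25940 in WT LPS and 27050 to 28720 in KO LPS. Summed neutrophil markers (8 genes, of which Ly6g was at 0 in every library) were 20.0 to 21.6 CPM in WT UT, 42.5 to 47.9 in KO UT, 50.4 to 79.3 in WT LPS and 67.1 to 76.2 in KO LPS, mostly S100a8 and S100a9. Summed markers of stromal, B, T and dendritic cells stayed at or below 8.42 CPM. Among them, stromal markers did not overlap between genotypes after LPS (1.885 to 4.29 CPM in WT and 6.91 to 8.42 in KO), T cell markers did not in UT (1.765 to 2.40 and 2.53 to 3.41) or LPS cells (0.377 to 0.584 and 0.732 to 1.09), and dendritic cell markers did not in UT cells (1.19 to 1.55 and 1.62 to 1.95). Each was higher in KO, and their part in the differences between genotypes was not tested. The T cell sum was mostly Cd4, and Cd3d, Cd3e, Cd3g and Cd8a held 0 to 5 counts in each library. Small structured RNAs took 2.92 to 3.16% of counts in WT UT, 6.51 to 7.70% in KO UT, 3.93 to 6.72% in WT LPS and 3.15 to 3.29% in KO LPS. This share therefore moved with genotype, upward in KO UT and downward in KO LPS, and with replicate in WT LPS, where it was 3.93, 5.23 and 6.72% in replicates 1 to 3. In such bulk RNA, fewer cells of a type and less RNA per cell cannot be told apart.

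LPS, rather than the deletion, went with the largest differences in the transcripts of these genes. Compared per kilobase of exon, the most abundant in WT UT were Ninj1 at 95.2 ± 2.96 CPM per kb and Casp1 at 77.9 ± 3.13 (SD, n = 3), and the least abundant was Nlrc4 at 4.33 ± 0.19. After LPS in WT, Casp1 led at 539.5 ± 21.8 CPM per kb, followed by Nlrp3 at 168 ± 11.9, Ninj1 at 167 ± 14.6, Gsdmd at 149 ± 5.83 and Casp4 at 122 ± 4.37. Casp4 had stood at 9.04 ± 0.39 CPM per kb before LPS. Nlrp1b went the other way, from 21.0 ± 0.32 to 2.12 ± 0.09 CPM per kb, and was the least abundant of the 9 after LPS.

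**Figure D1:**
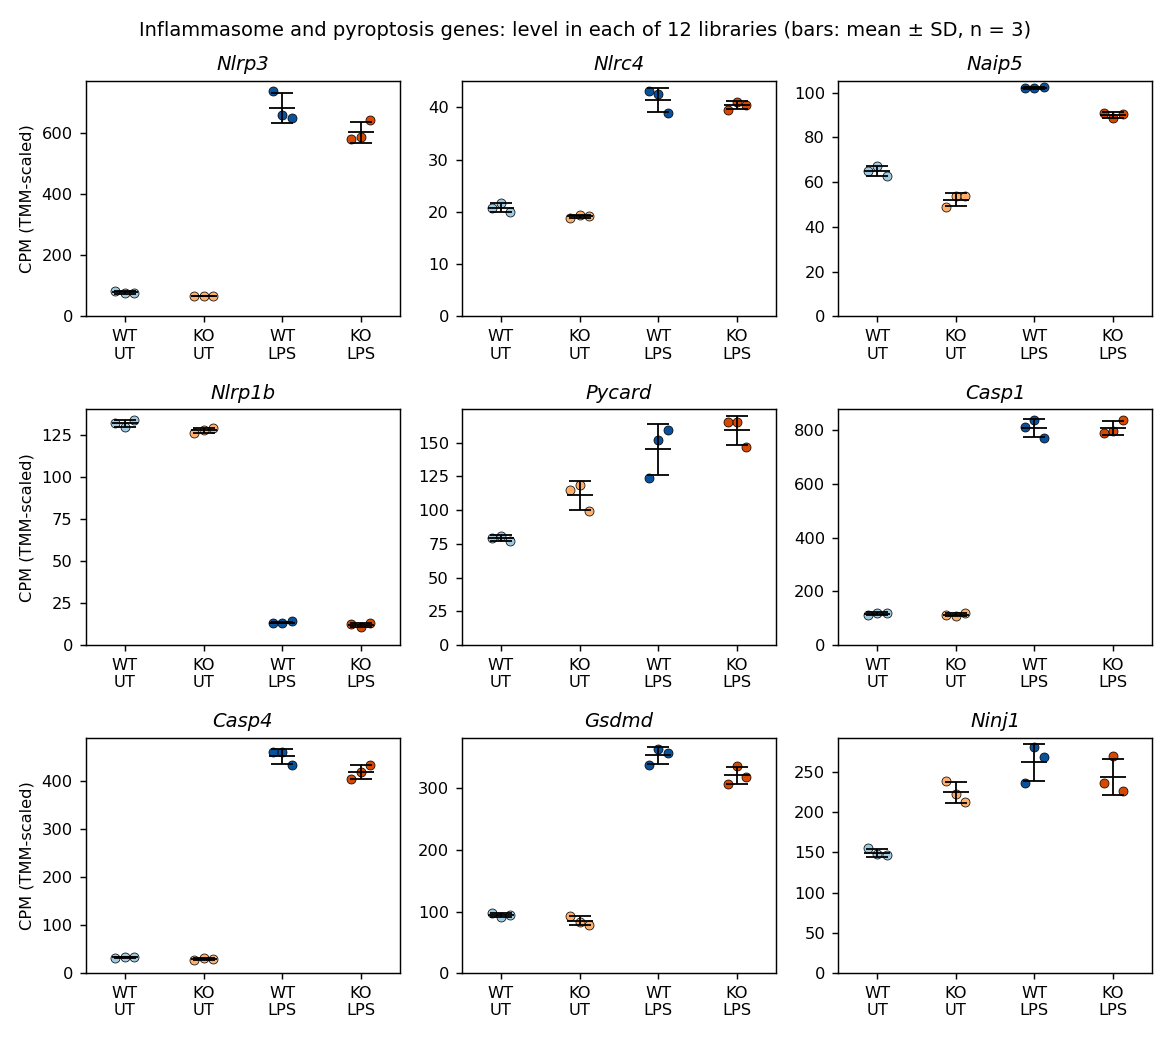
Level of each of the 9 genes in the 12 libraries, in TMM-scaled CPM on linear axes that start at 0; points are libraries, bars the mean ± SD of 3. Nlrp3, Casp1, Casp4 and Gsdmd are high in both LPS groups, Nlrp1b is low in both, and Pycard and Ninj1 are the genes whose KO UT libraries (99.1 to 119 and 212 to 238 CPM) lie above all WT UT libraries.

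The first comparison asked how the genes respond to LPS in each genotype. In WT, all 9 passed the test (adjusted p below 0.05), 8 upward and 1 downward, beside 73.3% of all genes tested (38.0% upward and 35.3% downward). With an absolute log2 change above 1 required as well, the criterion of the study, 5 were called (4 up, 1 down) beside 37.8% of all genes (19.1% and 18.7%). In KO, 8 passed (7 up, 1 down) beside 72.8% (35.1% and 37.7%), and 6 were called (5 up, 1 down) beside 37.0% (17.7% and 19.3%). The UT and LPS libraries did not overlap for 9 genes in WT and for 8 in KO, beside 74.8% and 76.0% of all genes. The median log2 change of the 9 was 1.00 in WT and 1.08 in KO, where the median of all genes was 0.05 and -0.06. Under upper-quartile scaling the median of all genes moved to -0.14 in WT and -0.24 in KO, and log2 responses to LPS under that scaling are relative to this shift.

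Among the sensors, Nlrp3 read 84.7, 78.2 and 75.7 CPM in WT UT and 736.5, 659 and 648 CPM in WT LPS. In KO it read 68.0, 68.5 and 68.2 CPM before LPS and 580.0, 586 and 642 CPM after. Every LPS library stood far above every UT library of either genotype. The log2 increase was 3.10 ± 0.07 in WT (SE; 8.57-fold, edgeR adjusted p = 1.61e-20) and 3.14 ± 0.07 in KO (8.84-fold, adjusted p = 1.25e-20).

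Nlrp1b behaved in the opposite direction. It read 132, 130.1 and 134 CPM in WT UT and 13.0, 13.1 and 14.1 CPM in WT LPS, and in KO it read 126, 128 and 129 CPM before and 12.2, 10.5 and 12.8 CPM after LPS. There was no overlap between treatments. Its log2 change was -3.31 ± 0.07 in WT (9.89-fold lower, edgeR adjusted p = 7.60e-21) and -3.43 ± 0.07 in KO (10.8-fold lower, adjusted p = 3.90e-21). No other gene of the 9 fell.

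Nlrc4 and Naip5, which work together in sensing bacterial proteins, rose modestly. Nlrc4 ranged from 19.9 to 21.8 CPM in WT UT, 18.7 to 19.4 in KO UT, 38.8 to 43.0 in WT LPS and 39.5 to 41.0 in KO LPS. The log2 increase was 1.00 ± 0.06 in WT (0.9957 before rounding, just under the fold criterion, edgeR adjusted p = 6.30e-12) and 1.08 ± 0.07 in KO (adjusted p = 2.04e-12), so the call in KO and its absence in WT rest on 0.08 of a log2 unit that did not pass the test of the difference (adjusted p = 0.608). In WT it passed the fold criterion at a mean CPM of at least 1, with protein-coding genes only, with the covariate for small structured RNAs, and without WT UT replicate 2 or WT LPS replicate 3 (1.01 to 1.13), and in KO it missed it under upper-quartile scaling (0.89) and with the covariate (0.88). Naip5 read 65.0, 67.3 and 63.0 CPM in WT UT and 102, 102 and 103 CPM in WT LPS, against 48.9, 53.8 and 53.8 CPM in KO UT and 91.0, 88.8 and 90.2 CPM in KO LPS. Its 4 groups did not overlap with one another, and its log2 increase after LPS was 0.65 ± 0.05 in WT and 0.79 ± 0.05 in KO (adjusted p = 4.16e-10 and 2.02e-11).

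Pycard, the adaptor, read 79.6, 81.2 and 77.0 CPM in WT UT and 124, 152 and 159.7 CPM in WT LPS. In KO it read 115, 119 and 99.1 CPM before LPS and 165.5, 165.4 and 147 CPM after. The LPS libraries stood above the UT libraries within each genotype, and the WT LPS libraries differed more among themselves (SD 18.8 CPM) than those of any other group. The log2 increase was 0.87 ± 0.08 in WT and 0.52 ± 0.08 in KO (edgeR adjusted p = 4.22e-09 and 7.40e-06). With the share of small structured RNAs as a covariate the increases were 0.44 in WT and 1.16 in KO, and the order of the genotypes turned. Under upper-quartile scaling that in KO was 0.34.

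Both caspases rose steeply. Casp1 read 111, 120.3 and 118 CPM in WT UT and 813, 837 and 772 CPM in WT LPS, and in KO 113, 106 and 118 CPM before and 790.5, 795 and 837 CPM after LPS. The genotypes overlapped at either treatment, and the log2 increase was 2.79 ± 0.06 in WT (6.92-fold) and 2.85 ± 0.06 in KO (7.21-fold; edgeR adjusted p = 1.28e-20 and 8.65e-21). Casp4 read 31.9, 33.8 and 34.8 CPM in WT UT and 461, 462 and 433 CPM in WT LPS, and in KO 28.3, 31.2 and 29.6 CPM before and 404, 419 and 433 CPM after LPS. It had the largest log2 increase of the 9 genes in both genotypes, 3.75 ± 0.06 in WT (13.5-fold) and 3.82 ± 0.06 in KO (14.1-fold; adjusted p = 2.79e-22 and 2.26e-22).

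Of the genes that break the membrane, Gsdmd read 97.5, 91.4 and 94.2 CPM in WT UT and 338, 364 and 358 CPM in WT LPS, and in KO 93.1, 83.9 and 78.7 CPM before and 307, 336 and 319 CPM after LPS. It had a log2 increase of 1.90 ± 0.06 in WT and 1.91 ± 0.06 in KO (edgeR adjusted p = 5.22e-17 and 5.14e-17), with no overlap between treatments. Ninj1 read 155, 147 and 146 CPM in WT UT and 236, 281 and 269 CPM in WT LPS. In KO it read 238, 223 and 212 CPM before LPS and 236, 269 and 226 CPM after. All KO UT libraries lay above all WT UT libraries and overlapped those of KO LPS. The log2 increase of Ninj1 was 0.81 ± 0.07 in WT (adjusted p = 1.33e-09). In KO the log2 difference was 0.12 ± 0.07 (95% interval -0.03 to 0.27, adjusted p = 0.136), and it was -0.06 under upper-quartile scaling and 0.47 ± 0.14 (adjusted p = 0.00578) with the covariate for small structured RNAs. Without KO LPS replicate 2 or KO UT replicate 3 it was 0.04 and 0.08.

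**Figure D2:**
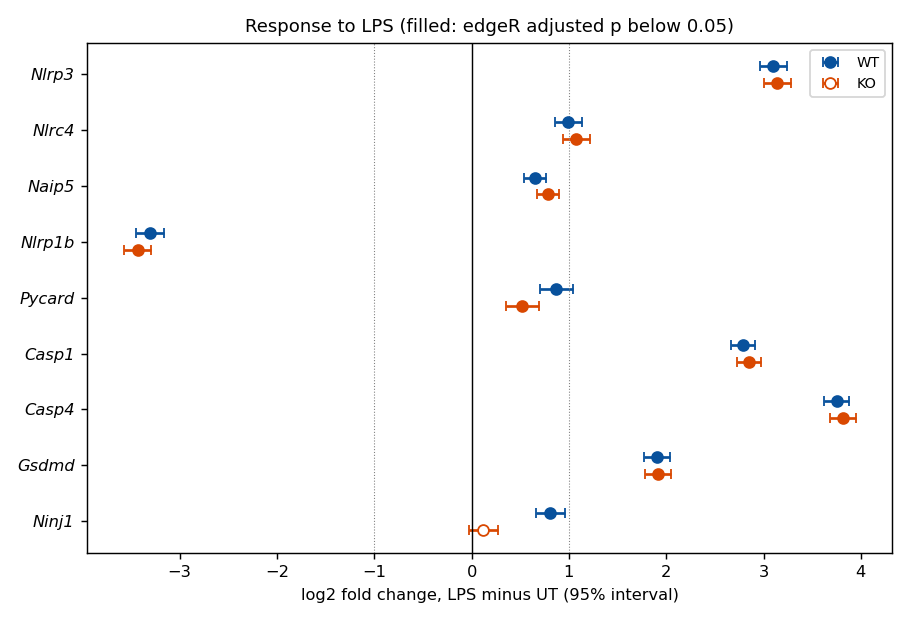
Log2 fold change of each gene after LPS (LPS minus UT) in WT and KO with its 95% interval, per gene and not adjusted for the number of genes; filled points have an edgeR adjusted p below 0.05, and dotted lines mark a log2 change of 1. The WT and KO points lie close for 7 genes and apart for Pycard (0.87 and 0.52) and Ninj1 (0.81 and 0.12).

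The next comparison asked whether the deletion goes with a different resting level. In UT cells, Ninj1 and Pycard were higher in KO than in WT, and the sensors Naip5 and Nlrp3 and the caspase gene Casp4 were lower. None of the differences reached the fold criterion (0 of 9 called, beside 1.82% of all genes). At an adjusted p below 0.05, 5 of 9 passed, 2 higher and 3 lower, beside 23.8% of all genes (14.1% higher and 9.69% lower). KO and WT did not overlap for 7 of 9 genes, beside 40.8% of all genes. The median log2 difference of the 9 was -0.12, against 0.00 for all genes.

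Ninj1 was 1.5-fold higher in KO UT, with a log2 difference of 0.59 ± 0.07 (SE; 95% interval 0.44 to 0.73, edgeR adjusted p = 3.95e-06). Its lowest KO library, at 212 CPM, lay above its highest WT library, at 155 CPM, and the log2 difference within batches 1, 2 and 3 was 0.62, 0.60 and 0.54. Pycard was 1.40-fold higher, by 0.48 ± 0.08 (interval 0.31 to 0.66, adjusted p = 1.45e-04), and 0.53, 0.55 and 0.36 within batches. Every KO UT library of both genes lay above every WT UT library.

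Naip5 was 1.25-fold lower in KO UT, with a log2 difference of -0.32 ± 0.05 (interval -0.43 to -0.21, edgeR adjusted p = 1.43e-04), and lower in all 3 batches. Nlrp3 was also lower, at -0.22 ± 0.06 (interval -0.35 to -0.09, adjusted p = 0.0125), and its 3 KO libraries ranged only from 68.0 to 68.5 CPM. Without WT UT replicate 1, its adjusted p was 0.0860. The difference of Casp4 was -0.18 ± 0.06 (interval -0.30 to -0.05, adjusted p = 0.0373), but with the batch number as a replicate block its adjusted p was 0.0547, and it was also over 0.05 without WT UT replicate 2 or 3 or KO UT replicate 1 or 3 (0.0880 to 0.160).

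The other 4 genes did not pass. Gsdmd differed by -0.15 (interval -0.28 to -0.02, edgeR adjusted p = 0.0989), Nlrc4 by -0.12 (-0.26 to 0.01, adjusted p = 0.201), Casp1 by -0.06 (-0.17 to 0.06, adjusted p = 0.517) and Nlrp1b by -0.05 (-0.16 to 0.07, adjusted p = 0.594). The study's own test, DESeq2, gave 8 of 9 with an adjusted p below 0.05 in UT cells (2 higher, 6 lower), and all genes were then centred at a median of -0.07. The share of all genes that passed was counted in the reported edgeR fit only, so counts under DESeq2 and other alternatives have no such share beside them. Gsdmd also passed under RLE scaling (adjusted p = 0.0106), with the compared groups only (0.0345) and without KO UT replicate 1 (0.0225), and Nlrc4 under RLE scaling (0.0297). Without KO UT replicate 3 the log2 difference of Gsdmd was -0.09, and that of Casp1 ranged from -0.09 to -0.02 without a library. The 5 passing differences run beside the share of small structured RNAs and the summed neutrophil markers, whose ranges do not overlap between WT UT and KO UT. Summed macrophage, T cell and dendritic cell markers did not overlap between these groups either. Of the neutrophil markers, Ltf and Elane overlapped in counts. With the share of small structured RNAs as a covariate, 0 of 9 passed, the log2 difference of Ninj1 was 0.20 ± 0.15 (adjusted p = 0.526) and Pycard turned to -0.21 ± 0.14 (adjusted p = 0.482). Naip5 was then at -0.29 ± 0.13 and Gsdmd at -0.38 ± 0.14 (edgeR adjusted p = 0.208 and 0.102). The slope of this covariate comes from differences within groups, which were widest in WT LPS (3.93 to 6.72%). In UT cells the share of small structured RNAs and the genotype cannot be told apart, and the part of the cell markers was not tested.

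**Figure D3:**
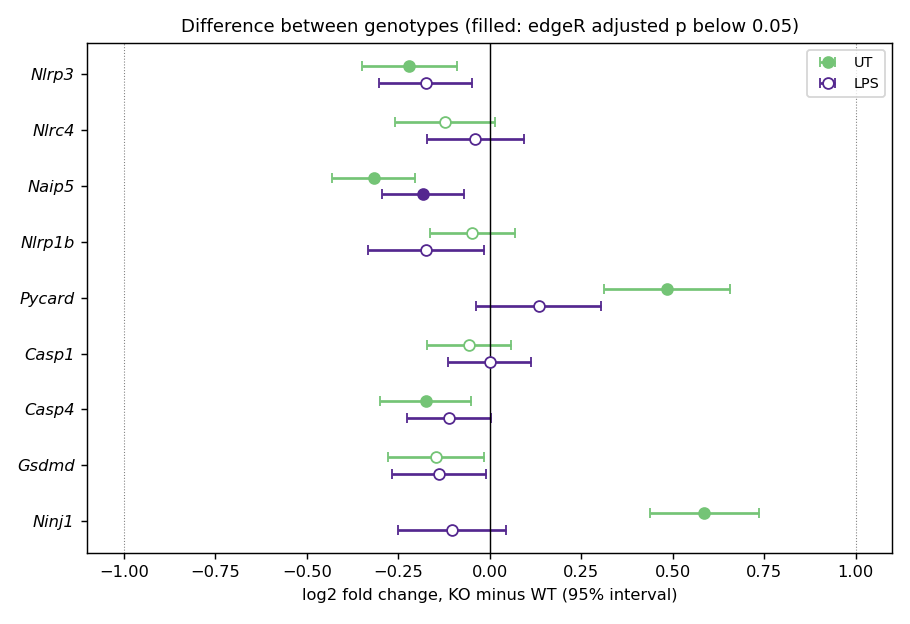
Log2 difference between genotypes (KO minus WT) of each gene with its 95% interval, per gene and not adjusted, in UT and LPS cells; filled points have an edgeR adjusted p below 0.05, and dotted lines mark a log2 difference of 1. In UT cells Ninj1 (0.59) and Pycard (0.48) lie to the right and Naip5, Nlrp3 and Casp4 to the left, and in LPS cells all 9 lie between -0.18 and 0.13.

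After LPS, Tnf differed 2.06-fold between genotypes. The log2 differences of the 9 genes lay between -0.18 and 0.13, with a median of -0.11 against -0.01 for all genes. The share of small structured RNAs did not overlap between WT LPS and KO LPS, and with it as a covariate the differences ranged from -0.31 to 0.51. Pycard was then higher and Nlrp3 lower past the test. Naip5 was at -0.20 ± 0.08 and no longer past it (edgeR adjusted p = 0.126). None was called (0 of 9, beside 1.25% of all genes), and 1 of 9, Naip5, had an adjusted p below 0.05, beside 14.3% of all genes (7.78% higher and 6.54% lower). The groups did not overlap for 5 of 9 genes, Nlrp3, Naip5, Nlrp1b, Casp4 and Gsdmd, each lower in KO, beside 29.1% of all genes without overlap and 14.9% without overlap and lower.

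Naip5 was lower in KO LPS, with a log2 difference of -0.18 ± 0.05 (SE; 95% interval -0.29 to -0.07, edgeR adjusted p = 0.0278), at 90.0 ± 1.14 CPM against 102 ± 0.34 CPM (SD, n = 3 each), and -0.16, -0.20 and -0.18 in batches 1 to 3. The adjusted p was 0.0515 with the replicate block and 0.05001 to 0.0995 without WT LPS replicate 2 or 3 or any KO LPS replicate, while the log2 difference stayed between -0.19 and -0.17. Nlrp3 differed by -0.18 ± 0.06 (interval -0.30 to -0.05) and just missed the test (adjusted p = 0.0557). It passed without WT LPS replicate 3 (adjusted p = 0.0301) or KO LPS replicate 3 (0.0388), and under upper-quartile scaling, DESeq2, a mean CPM of at least 1, protein-coding genes only and the small structured RNA covariate (0.00773 to 0.0446). Without WT LPS replicate 1 its log2 difference was -0.12.

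The remaining 7 did not pass. Nlrp1b differed by -0.17 (interval -0.33 to -0.02), Gsdmd by -0.14 (-0.27 to -0.01), Casp4 by -0.11 (-0.23 to 0.00), Ninj1 by -0.10 (-0.25 to 0.05) and Nlrc4 by -0.04 (-0.17 to 0.09), with edgeR adjusted p from 0.136 to 0.729. Gsdmd passed with protein-coding genes only (-0.18, adjusted p = 0.0478) and without WT LPS replicate 1 (-0.17, 0.0471), and was at -0.01 with the covariate. Pycard differed by 0.13 (-0.04 to 0.30, adjusted p = 0.305), and by 0.51 ± 0.09 (SE, adjusted p = 2.27e-04) with the share of small structured RNAs as a covariate. Single libraries moved these small differences by over 1.5-fold. Pycard was at 0.03 without WT LPS replicate 1 and 0.21 without WT LPS replicate 3, and Nlrp1b at -0.09 without KO LPS replicate 2. Ninj1 was at -0.17 and -0.18 without WT LPS replicate 1 or KO LPS replicate 2, and at -0.05 without WT LPS replicate 2 or KO LPS replicate 3. Nlrc4 ranged from -0.08 to -0.01, its ends being without WT LPS replicates 3 and 1. Casp1 had the same mean in both genotypes, 808 CPM, and the interval of its log2 difference was -0.11 to 0.11. A p over the threshold does not show equal levels, and each interval gives the range of differences that these libraries allow.

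The interaction compared the response to LPS in KO with that in WT. Ninj1 and Pycard had smaller responses in KO. At an adjusted p below 0.05, 2 of 9 passed, both with a smaller response in KO, beside 16.8% of all genes (7.32% larger and 9.50% smaller), and 0 of 9 were called, beside 2.16%. For Ninj1 the log2 response in KO minus that in WT was -0.69 ± 0.10 (SE; 95% interval -0.90 to -0.48, edgeR adjusted p = 1.06e-04), and -0.62, -0.66 and -0.79 within batches 1, 2 and 3. For Pycard it was -0.35 ± 0.12 (interval -0.59 to -0.11, adjusted p = 0.0429), and -0.11, -0.43 and -0.49 within batches. The Pycard result was close to the threshold, with an adjusted p of 0.0603 under the replicate block and 0.104 under DESeq2 (-0.27 ± 0.13), where Naip5 had a larger response in KO (0.22 ± 0.08, adjusted p = 0.0258). With the covariate for small structured RNAs, the Ninj1 difference was -0.10 ± 0.23 and that of Pycard 0.72 ± 0.22 (adjusted p = 0.901 and 0.0728). For the other 7 genes edgeR gave differences between responses from -0.13 to 0.14, with adjusted p of 0.250 or more, so that the increases of Nlrp3, Casp1, Casp4 and Gsdmd were not shown to differ between genotypes. The interval was -0.14 to 0.23 for Nlrp3 and -0.11 to 0.23 for Casp4.

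The rest of the pathway was read from a list of 40 other genes, of which 36 passed the filter on low counts. LPS raised 24 and lowered 8 of the 36 in WT (beside 38.0% and 35.3% of all genes), and raised 25 and lowered 6 in KO (beside 35.1% and 37.7%). All 3 cytokine genes of the list were called upward in both genotypes, where 19.1% of all genes were called upward in WT and 17.7% in KO. Il1a, whose product leaves lysing cells, had log2 increases of 10.63 in WT and 10.42 in KO. Il1b and Il18, whose products caspase-1 matures, had increases of 7.83 and 7.84, and of 3.18 and 3.40. All 6 GTPases that bring LPS to caspase-11 or act beside it were called upward in both genotypes, led by Gbp5 (8.23 in WT, 8.67 in KO), Gbp2 (6.12 and 7.0) and Gbp3 (5.71 and 6.66). Of the 6 regulators of NLRP3, 4 fell and 2 rose in each genotype. P2rx7, the ATP-gated channel, fell by 1.88 and 1.90, and Nek7, which binds NLRP3, fell by 0.77 and 0.55, while Pstpip1 rose by 1.10 and 1.13 and Brcc3 by 0.29 and 0.38 (-0.07 in KO with the covariate). With the covariate, Nek7 was at -0.35 in WT and -1.19 in KO, so the order of the genotypes turned. Under upper-quartile scaling, Brcc3 in WT was at 0.11 and did not pass (edgeR adjusted p = 0.214). Gsdme, another gasdermin, fell by 2.37 in WT and 2.96 in KO. Of the 7 other sensors tested, 4 rose and 2 fell in WT, and 4 rose and 1 fell in KO. Mefv, which encodes pyrin, rose by 4.02 and 4.0 and Aim2, a sensor of cytosolic DNA, by 1.94 and 2.20, while Nlrp10 fell by 3.68 and 3.24, from 5.84 to 0.44 CPM in WT. The initiator caspase gene Casp8 rose by 1.62 in both genotypes. Txnip, which binds NLRP3, fell by 1.08 in WT and by 0.64 in KO. Under TMM scaling and without a covariate, each of these log2 changes passed the edgeR test.

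In UT cells, 15 of the 36 were lower in KO, 1 was higher and 20 did not pass, against 9.69% lower and 14.1% higher among all genes. All 6 GTPases were among the lower genes, with log2 differences of -0.86 for Gbp7, -0.84 for Gbp3 and -0.72 for Gbp2 (edgeR adjusted p = 5.33e-06, 2.37e-08 and 6.03e-08). Gbp2 read 36.7, 34.7 and 35.8 CPM in WT UT and 22.1, 20.2 and 22.6 CPM in KO UT. The interferon regulatory factors Irf1 and Irf2, which drive transcription of several genes of the pathway, were lower, at -0.20 and -0.22 (adjusted p = 0.00699 and 0.0233), and Irf8 differed by 0.08 (adjusted p = 0.293). Among other sensors, Nlrp10, Aim2 and Naip6 were lower, 3 of 7 tested. None of the 3 cytokine genes and none of the 6 regulators of NLRP3 passed. Casp12 was higher by 1.03 (adjusted p = 0.0355), at 0.15 to 0.24 CPM in WT and 0.38 to 0.43 CPM in KO. The Casp12 call was lost under DESeq2, without a filter, with the compared groups only and with the covariate, and without WT UT replicate 1 or 3 or any KO UT replicate. That of Irf2 was lost without WT UT replicate 1 or 2 or KO UT replicate 1 or 2, that of Nlrp10 without any 1 of the 6 UT libraries, and that of Naip6 without WT UT replicate 2. The differences of this wider list in UT cells also run beside the small structured RNAs and cell markers described above. With the share of small structured RNAs as a covariate, 6 of the 36 passed (3 higher, 3 lower), and 2 of the 6 GTPases, Gbp3 at -0.47 and Gbp2 at -0.35 (adjusted p = 0.0137 and 0.0391). The part of the cell markers was not tested.

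After LPS, 4 of the 36 passed between genotypes, 1 higher and 3 lower in KO, beside 14.3% of all genes (7.78% higher and 6.54% lower). Txnip was higher in KO, with a log2 difference of 0.50 ± 0.06 (edgeR adjusted p = 3.92e-06), at 296 ± 8.31 CPM against 209 ± 15.6 CPM (SD, n = 3 each). Il1a (-0.34 ± 0.09, adjusted p = 0.0125) and Gsdme (-0.55 ± 0.18, adjusted p = 0.0403) were lower. With the covariate for small structured RNAs, Txnip was at 0.33 ± 0.07 and Il1a at -0.54 ± 0.10, both past the test. The Il1a call was lost without KO LPS replicate 1, and that of Gsdme with the compared groups only, without a filter, with the covariate, and without KO UT replicate 2, WT LPS replicate 2 or 3 or any KO LPS replicate. Without WT LPS replicate 1, 10 of the 36 passed (8 higher), and 1 or 2 did without WT LPS replicate 2 or any KO LPS replicate. Il1b differed by -0.08 (95% interval -0.19 to 0.02) and Il18 by 0.09 (-0.06 to 0.24), neither past the test. None of the 6 GTPases, 3 interferon regulatory factors or 7 other sensors passed. In the interaction, all 6 GTPases had a larger response in KO, from 0.43 for Gbp5 to 0.99 for Gbp7. In all, 13 of the 36 had a larger response in KO and 1, Casp12, a smaller one (-1.27, adjusted p = 0.0349), beside 7.32% larger and 9.50% smaller among all genes. The Casp12 call was lost in 9 of 12 fits without a library, and that of Gbp5 without WT UT or KO UT replicate 2. Without KO UT replicate 2, 9 of the 36 passed. The share of small structured RNAs, higher in KO UT and lower in KO LPS than in WT, runs beside these responses. With it as a covariate 4 of the 36 passed (1 larger, 3 smaller in KO), 0 of 6 GTPases passed, and their differences ranged from -0.30 for Gbp5 to 0.38 for Gbp3.

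**Figure D4:**
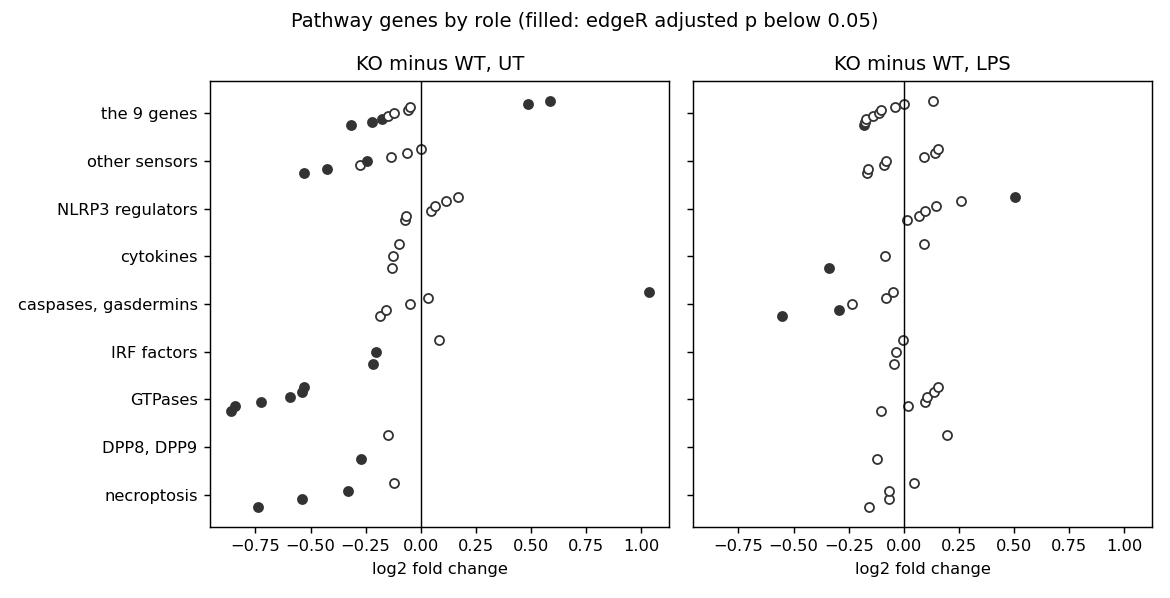
Log2 difference between genotypes (KO minus WT) for the 9 genes and 36 other genes of the pathway, grouped by role, in UT (left) and LPS (right) cells on a common axis; each point is a gene, and filled points have an edgeR adjusted p below 0.05. All 6 GTPases lie left of 0 and are filled in UT, and 0 of 6 is filled in LPS.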

How the data were processed

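Total RNA of 12 BMDM libraries was measured. Per the labels and the methods, the authors prepared stranded, globin-depleted total RNA libraries, sequenced paired reads, checked them with FastQC 0.11.9, aligned them to GRCm38 with HISAT2 2.1.0 and SAMtools 1.17, and counted them per gene with featureCounts 2.0.0. The deposited values are these raw counts per gene, with no filter or scaling. How the counting treated strand and reads with several positions, and from which annotation release, is not given in the sources used here.

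Gene identifiers were matched without their version to GENCODE vM21 (48144 of 48526 matched, and the other 382 held 0.122% of counts). Differences were tested by quasi-likelihood in edgeR 4.0.16 (limma 3.58.1, R 4.3.3) with TMM scaling and filterByExpr (minimum count 10, minimum total 15), which left 15523 genes with 99.96% of counts. The 12 libraries entered a single model of 4 group means without covariates. P-values were adjusted over all genes tested by the Benjamini-Hochberg method. Genes were called at an adjusted p below 0.05 together with a log2 fold change beyond 1 in either direction. The common biological coefficient of variation was 0.0712. Intervals (95%) are per gene and not adjusted. The test was checked on simulated counts. Tables were joined and figures made in Python 3.11.15 (pandas 2.3.3, matplotlib 3.10.9).

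The 9 genes and the gene lists were chosen with earlier results of these data known. The 9 genes, Tnf, Il1a, Il1b, Il18, P2rx7, Nek7, Gsdme, Casp8, Irf1, Irf2 and Irf8 were named by rule, with at most the 3 largest increases and 3 largest decreases of the wider list per contrast. Aim2, Mefv, Pstpip1, Brcc3, Naip6, Ripk1, Ripk3, Mlkl and Dpp9 were named after their values had been seen. Some genes and motifs that met these rules are not reported here. Irgb10 is listed as Gm12250 in the annotation. Of the 40 other listed genes, Nlrp6, Nlrp12, Gsdmc and Gsdma did not pass the filter. Likeness between genes was the root mean square difference of mean-centred log2 CPM over 12 libraries, among the 9589 genes that reached a mean CPM of 5.

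The labels give each library a batch number, which equals its replicate number and pairs the libraries that carry it. Deviations from group means of such libraries were correlated across genes, and r ranged from -0.0631 to 0.0373 over 18 pairs, with 0 pairs over 0.1. Replicates differed by more than counting noise (chi-square per degree of freedom of at least 3.81), and each library was kept as a sample of its own. Alternatives were RLE and upper-quartile scaling, DESeq2 1.42.0 (the test of the study), no filter, a mean CPM of at least 1, the replicate block, a fit of only the groups compared, a fit of only protein-coding genes, a covariate for the share of small structured RNAs, and leaving out each library in turn. For genes other than the 9 these were added after seeing the data. Shares of all genes that passed were counted in the reported edgeR fit only, and not under the alternatives. The slope of the covariate rests on differences within groups, which were widest in WT LPS.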

Additional observations from a re-analysis of the deposited data

Results flagged for a closer look

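The log2 response of Ninj1 to LPS, KO minus WT, was -0.6888 (0.81 in WT, 0.12 in KO; edgeR interaction, SE 0.10, adjusted p = 1.06e-04), and the within-batch differences were -0.62, -0.66 and -0.79. That of Pycard was -0.3506 (0.87 in WT and 0.52 in KO; SE 0.12, adjusted p = 0.0429), and the within-batch differences were -0.11, -0.43 and -0.49. These are the values already given for the interaction, and in both genes the KO UT libraries lay above the WT UT libraries. The share of small structured RNAs also differed between the genotypes, upward in KO UT and downward in KO LPS, and with it as a covariate the differences were -0.0986 for Ninj1 and 0.7168 for Pycard.

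All 6 GTPases had a larger response to LPS in KO than in WT by the same test. The log2 difference was 0.8779 for Gbp2, 0.9480 for Gbp3, 0.4348 for Gbp5, 0.9948 for Gbp7, 0.6138 for Irgm1 and 0.6244 for Irgb10 (edgeR adjusted p from 8.29e-07 to 0.0185), and with the covariate for small structured RNAs 0 of 6 passed. That of Casp12 was -1.2684 (adjusted p = 0.0349), lost in 9 of 12 fits without a library.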

How the results depend on the processing

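The responses to LPS in WT kept their direction and an adjusted p below 0.05 for all 9 genes under every alternative run (189 of 189 values), and those in KO kept direction and side of that threshold in 187 of 189. By the fold criterion, 6 genes in place of 5 were called in WT at a mean CPM of at least 1, with protein-coding genes only and with the covariate, Nlrc4 being the added gene. Leaving out each library in turn gave 5 to 6 called genes in WT and 6 in KO. In KO, Ninj1 had a log2 response of -0.0646 under upper-quartile scaling and 0.4725 (edgeR adjusted p = 0.00578) with the covariate for small structured RNAs.

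The comparison of genotypes after LPS stood close to the threshold. The number of genes with an adjusted p below 0.05, 1 in the report, was 2 under upper-quartile scaling, DESeq2 and a mean CPM of at least 1 (Naip5 and Nlrp3), 2 with the covariate (Nlrp3 lower at -0.3121 and Pycard higher at 0.5085, without Naip5), 3 with protein-coding genes only, and 0 without a filter, with the replicate block and with the compared groups only. Leaving out 1 library gave 0 to 2, with 0 without WT LPS replicate 2, KO LPS replicate 1 or KO LPS replicate 2, and 2 without WT LPS replicate 1. Casp1, whose log2 difference is 0.00, was -0.0237 under upper-quartile scaling, -0.0165 at a mean CPM of at least 1, -0.0006 with the replicate block, -0.0357 with protein-coding genes, -0.1007 with the covariate, -0.0054 with the compared groups only and -0.0305 to 0.0293 without a library. Ninj1 was 0.1031 with the covariate.

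In UT cells the number with an adjusted p below 0.05 was 8 under DESeq2, 7 under RLE scaling, 6 with the compared groups only, 4 without a filter and with the replicate block, 0 with the covariate and 4 to 5 without a library. With the covariate, the log2 difference of Nlrp3 was 0.0372, of Nlrc4 0.0921, of Pycard -0.2083 and of Casp1 0.1315. Without a change of direction, Naip5 was at -0.2921, Gsdmd at -0.3812, Nlrp1b at -0.1187, Casp4 at -0.0109 and Ninj1 at 0.2017.

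In the interaction the number with an adjusted p below 0.05 was 1 under RLE scaling, upper-quartile scaling and the replicate block, 2 under DESeq2 (Ninj1, and Naip5 at 0.2188 in place of Pycard), 0 with the covariate, and 1 to 2 without a library, where Pycard kept an adjusted p below 0.05 in 2 of 12 fits, without KO UT replicate 3 or WT LPS replicate 1. Over all 12 its log2 difference ranged from -0.4532 to -0.2761. Ninj1 stayed at -0.7636 to -0.6334 without a library. With the covariate the log2 difference was -0.3493 for Nlrp3, -0.2450 for Nlrc4, 0.7168 for Pycard, -0.2323 for Casp1 and -0.1878 for Casp4. It was 0.3666 for Gsdmd, 0.0963 for Naip5, -0.0174 for Nlrp1b and -0.0986 for Ninj1. Gsdmd, whose log2 difference is 0.01, was -0.0125 at a mean CPM of at least 1, -0.0349 with protein-coding genes and -0.0451 to 0.0820 without a library, and Nlrp3 was -0.0029 to 0.1047. Among the 9 genes the replicate block changed no call on the adjusted p other than those of Naip5 after LPS, Casp4 in UT and Pycard in the interaction, and it changed 0 of 67 calls on the other genes named.

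For the other genes the alternatives were chosen after seeing the data. With the covariate, the number of the 36 that passed was 6 in UT cells and 4 in the interaction, and the log2 difference was 0.0367 for Irf2, 0.4223 for Nlrp10 and 0.1043 for Ripk1 in UT cells, -0.0673 for Brcc3 in the response in KO, and -0.3050 for Gbp5 and -0.0061 for Gbp7 in the interaction. Without a library the number ranged from 1 to 10 after LPS and from 9 to 17 in the interaction. The cause of these shifts was not tested.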

Other observations

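Necroptosis is a lytic death separate from pyroptosis, and 3 of its 4 listed genes were lower in KO UT, beside 9.69% lower among all genes. With the share of small structured RNAs as a covariate, 1 of the 4, Zbp1, passed. Ripk3 was then at -0.55 ± 0.24 and Mlkl at -0.08 ± 0.13 (edgeR adjusted p = 0.216 and 0.809). Zbp1, a sensor of nucleic acids, had a log2 difference of -0.74 ± 0.06 (SE, edgeR adjusted p = 1.18e-08), the kinase gene Ripk3 of -0.54 ± 0.08 (adjusted p = 5.21e-05) and Mlkl, whose product breaks the membrane, of -0.33 ± 0.06 (adjusted p = 5.02e-04). Zbp1 read 53.9, 49.2 and 54.7 CPM in WT UT and 32.3, 32.1 and 30.3 CPM in KO UT, with no overlap. Ripk1 differed by -0.12 (adjusted p = 0.198). After LPS 0 of the 4 passed between genotypes, with log2 differences from -0.16 to 0.05. LPS raised Zbp1 by 3.47 in WT and 4.14 in KO and Mlkl by 3.69 and 4.07. Of the dipeptidyl peptidases that restrain NLRP1B, Dpp9 was lower in KO UT (-0.27 ± 0.07, adjusted p = 0.00410), and neither passed between genotypes after LPS. With the covariate for small structured RNAs, Dpp9 in UT cells was at -0.07 ± 0.18 (edgeR adjusted p = 0.898).

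Genes whose profile over the 12 libraries lay near to each of the 9 were Tnip1 and Rhbdf2 for Nlrp3 (root mean square differences of 0.0682 and 0.0717 log2 units), Prkcd and Atp9b for Nlrc4 (0.0425 and 0.0535) and Mycbp2 and Baz2a for Naip5 (0.0565 and 0.0600). For Nlrp1b they were Nceh1 and Lrmp (0.0881 and 0.119), for Pycard BC031181 and Bsg (0.0832 and 0.0871) and for Ninj1 Blvrb (0.0605). Casp1 lay nearest to Inpp5b and Stard7 (0.0451 and 0.0736), Casp4 to Icam1 and Cflar (0.0658 and 0.0746) and Gsdmd to Triobp and Ccdc88b (0.0710 and 0.0741). These are descriptions over 12 libraries in 4 groups, and the genes compared were measured in the same libraries.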
